A study of Mus musculus with 18 samples.

Results

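Control colon crypts of the study's 2 mouse lines were compared with each other. The members were 5 of the 18 libraries of the series, chosen by their labels: 2 libraries from wild-type mice of the Olfr78-GFP line (WT1 and WT2) and 3 from control mice of the Vil1Cre/Olfr78fx line (eCtrl1, eCtrl2 and eCtrl3). Both sets of animals were meant to keep Olfr78, a receptor for short-chain fatty acids, so that the comparison describes the lines and not the loss of the receptor. The line, the deposited table and the genetic background changed together between WT and eCtrl, and their parts in any difference cannot be told apart.

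The colon epithelium is folded into crypts, with dividing stem cells at the base and absorptive colonocytes, mucus-producing goblet cells, hormone-producing enteroendocrine cells and chemosensory tuft cells along the wall. It faces the gut bacteria and is known for a set of defence genes that follow microbial signals, for ion transport, and for a circadian rhythm that runs through much of its transcriptome. Crypts are freed from the tissue by a calcium chelator and by shaking, a handling step during which immediate early and heat shock genes are known to respond.

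The Olfr78-GFP line is B6;129P2-Or51e2tm1Mom/MomJ, in which the mutant allele replaces the receptor with GFP, and the WT animals were labelled WT for it. The other line joined the Vil1Cre transgene B6.Cg-Tg(Vil1-cre)997Gum/J, whose villin promoter is active in the intestinal epithelium, to the floxed allele B6-Olfr78Tm1Mig. Control mice 1 and 3 carried the genotype HE/WT, that is the Cre transgene with unfloxed *Olfr78*, whereas control mouse 2 was WT/HO, with the floxed allele and no Cre. The eCtrl group thus pooled 2 genotypes, and only control mouse 2 carried the floxed allele. Each library came from 1 mouse and none of the 5 animals had a stated treatment. Animals labelled knockout of the same lines (5 KO of the Olfr78-GFP line and 2 eKO of the Vil1Cre/Olfr78fx line) shared no library with the comparison and are cited beside its results. The library labelled eKO2 bore the genotype WT/HO, that of control mouse 2 and without Cre, so that its label goes against a loss of the receptor. The labels gave neither age nor sex for these mice.

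The deposited values are reads per gene scaled to a total of 20000000 in each library, here called CP20M. Between 7510608 and 10224749 reads lay behind each of the 5 control libraries, and a single read gave 1.96 to 2.66 CP20M. Of 52636 genes in both tables, 15298 reached 40 CP20M in at least 2 of the 5 libraries and were tested with limma on log2(CP20M + 10). A log2 difference is eCtrl minus WT on that scale throughout, which understates the difference of genes with low values.

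The labels were checked on the receptors and on cell type markers. *Olfr78* stood at 88 and 111 CP20M in WT and at 105, 61 and 124 CP20M in eCtrl crypts, with overlapping groups (log2 difference -0.08, SE 0.31, adjusted p = 0.92). The 5 KO libraries lay between 7 and 42 CP20M, below all 5 controls, and the eKO libraries at 21 and 73 CP20M, of which the latter exceeded eCtrl2. *Ffar2*, another short-chain fatty acid receptor, had 413 and 365 CP20M in WT against 615, 292 and 310 CP20M in eCtrl. *Olfr558* (56 and 32 against 34, 4 and 24 CP20M) and *Ffar3* (19 and 14 against 42, 24 and 27 CP20M) did not reach the minimum. The goblet mucin *Muc2* was abundant in all 5 libraries (243604 to 406858 CP20M), as was the colonocyte carbonic anhydrase *Car1* (75676 to 120418 CP20M). The Y-linked genes *Ddx3y*, *Eif2s3y*, *Kdm5d* and *Uty* lay between 660 and 1924 CP20M, while *Xist*, which silences the female inactive X, lay between 10 and 34 CP20M and its antisense RNA *Tsix* between 0 and 10 CP20M, the pattern of male mice in every library.

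Markers of other cell types were scarce. Of 22 markers of stroma, vessels and nerve, 11 were tested, and their summed level was 4081 and 2069 CP20M in WT against 1380, 3225 and 2143 CP20M in eCtrl, overlapping between groups. Of 30 leukocyte markers 10 were tested, with sums of 3936 and 3837 CP20M in WT against 6254, 4470 and 4116 CP20M in eCtrl. Most of each sum came from *Kit* (2466 and 2524 against 3369, 2348 and 2423 CP20M). *Cd14*, the called member, added 240 and 268 CP20M in WT against 1433, 935 and 980 CP20M in eCtrl. The pan-leukocyte marker *Ptprc* overlapped between groups, so the sums do not show a difference in leukocytes. Only 1 of 7 red blood cell markers (*Alas2*, 88 and 71 against 53, 65 and 60 CP20M) and 0 of 14 squamous markers reached the minimum. The squamous markers summed to 113 and 81 CP20M in WT against 77, 561 and 80 CP20M in eCtrl, so that eCtrl2 alone was high.

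Library eCtrl1 stood apart from the other control mice of its line, also from eCtrl3, which has the same genotype label. The root mean square distance over all tested genes, in log2 units, was 0.30 between the WT libraries and 0.34 between eCtrl2 and eCtrl3, but 0.51 and 0.52 between eCtrl1 and these. Distances between WT and eCtrl libraries ran from 0.53 to 0.59. Counted by genes that differed over 2-fold, eCtrl2 and eCtrl3 differed in 172 and the WT libraries in 167, whereas eCtrl1 differed from eCtrl2 in 813 and from eCtrl3 in 859, as many as separated some pairs of different lines (573 to 868). For this reason the counts of each gene list are given again without eCtrl1 after the lists.

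Between the lines, 87 of 15298 genes were called at an adjusted p under 0.05 and a difference above 1.5-fold, which is 0.569% of those tested. Of these, 44 (0.288%) were higher in eCtrl and 43 (0.281%) higher in WT. The split depended on scaling, since only 26 genes were higher in eCtrl and 43 in WT after rescaling by the median of ratios, 25 and 43 when scaled to reads outside mitochondrial genes, and 23 and 50 with edgeR on the recovered reads. The median log2 difference of all genes was 0.06 as deposited and 0.01 under either rescaling. Means were higher in eCtrl for 58.7% of the tested genes, and 2424 genes (15.8%) had an unadjusted p under 0.05. At the wider threshold of an adjusted p of at most 0.2, 597 genes (3.90%) were called, 391 of them higher in eCtrl (2.56%) and 206 in WT (1.35%). The counts of the gene lists below are to be read beside these shares and those at an adjusted p under 0.05. Without eCtrl1, 1038 genes were called (746 higher in eCtrl, 292 in WT), the 87 among them, against 2 without either WT library, which left 1 mouse in that group.

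The called genes fell into few kinds. Those higher in WT were 14 mitochondrial tRNAs, 23 genes annotated as protein-coding, of which 12 were gene models on satellite repeats, and 6 other transcripts, among which the lincRNA *Gm26870* is also a satellite model. Those higher in eCtrl were 23 protein-coding genes, 20 pseudogenes and 1 microRNA gene. With protein-coding genes alone in the fit, 25 were called, 8 higher in eCtrl and 17 in WT.

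Other mice of the same pair of lines were those labelled knockout. There 998 genes (6.52%) were called between eKO and KO, 687 (4.49%) higher in eKO and 311 (2.03%) higher in KO. All 44 genes higher in eCtrl had a difference of the same sign in those animals and 31 were called, and all 43 genes higher in WT had the same sign, with 35 called. Over all tested genes 64.9% had the same sign in both comparisons. For 34 of the 43 genes higher in WT, every WT and KO library lay above every eCtrl and eKO library, a separation found in 2.07% of all genes. For 31 of the 44 genes higher in eCtrl the order was the opposite, as in 6.99% of all genes. The control libraries entered both the calls and these separations. The line difference of the animals labelled knockout differed from that of the controls, at an adjusted p under 0.05, in 2 genes (0.0131%) of the 1325 (8.66%) with an unadjusted p under 0.05, and neither was called between the controls.

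The largest differences were in 13 gene models built on a satellite repeat, all of them higher in WT, with a median log2 difference of -8.88 and of -6.79 in the animals labelled knockout. Major satellite is the tandem repeat of mouse pericentromeric heterochromatin, and these models are stretches of it that the annotation lists as genes. They were grouped by sequence alone, as models sharing at least 50% of their 12-base words with *Gm10800*. *Gm10800* lies at chr2:98666547-98667301 (GRCm38, minus strand) and *Gm10717* at chr9:3025417-3033289 (plus strand). The opening 240 bases of both transcripts are shown because the differing reads carry this repeat, with the 12-base word TTTTCAGTTTTC in capitals, which recurred 77 times over 12 of the 13 models.
Gm10800: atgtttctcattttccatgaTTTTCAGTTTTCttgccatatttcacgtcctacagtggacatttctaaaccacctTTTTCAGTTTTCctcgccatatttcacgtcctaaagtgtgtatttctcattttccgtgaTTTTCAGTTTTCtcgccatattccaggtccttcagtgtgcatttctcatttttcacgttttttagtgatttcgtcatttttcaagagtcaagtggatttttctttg
Gm10717: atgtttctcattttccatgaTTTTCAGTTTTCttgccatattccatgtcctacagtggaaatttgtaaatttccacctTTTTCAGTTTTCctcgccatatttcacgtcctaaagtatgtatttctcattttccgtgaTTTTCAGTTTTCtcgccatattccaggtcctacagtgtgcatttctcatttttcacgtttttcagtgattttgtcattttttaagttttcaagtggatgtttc

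*Gm10800* had 137374 and 168629 CP20M in WT crypts but 1280, 53 and 62 CP20M in eCtrl crypts (log2 difference -9.72, SE 1.12, adjusted p = 0.012). *Gm10717* had 9164 and 15824 CP20M in WT against 14, 4 and 0 CP20M in eCtrl (log2 difference -9.65, SE 0.37, adjusted p = 1.6e-05). *Gm10722*, *Gm11168*, *Gm10715*, *Gm10720*, *Gm17535*, *Gm10719* and *Gm10721*, the other models among the 8 smallest p-values, had 1146 to 10478 CP20M in WT and 0 to 24 CP20M in eCtrl. The groups were apart in every one of these models, and eCtrl1 was the highest eCtrl library, or level with the highest, in each of them.

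Summed over the 13 models, the repeat took 280879 and 390271 CP20M in WT, or 1.40% and 1.95% of each library, against 1774, 142 and 117 CP20M in eCtrl. The KO libraries held 126558 to 679814 CP20M, the eKO libraries 1903 and 10211 CP20M, and the 6 libraries of sorted epithelial cells, extracted with another kit, 244 to 20130 CP20M. All crypt libraries of the table that holds WT and KO were therefore high and all crypt libraries of the other table low, whereas the sorted libraries, which share the first table, were low. For 8 of the 13 models every eCtrl library lay below all 9 other crypt libraries, as in 0.516% of all genes. *Gm10800* has copies in the genome that the counting may have shared or dropped, since 42.0% of its 31-base words recur in other annotated genes.

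**Figure D1:**
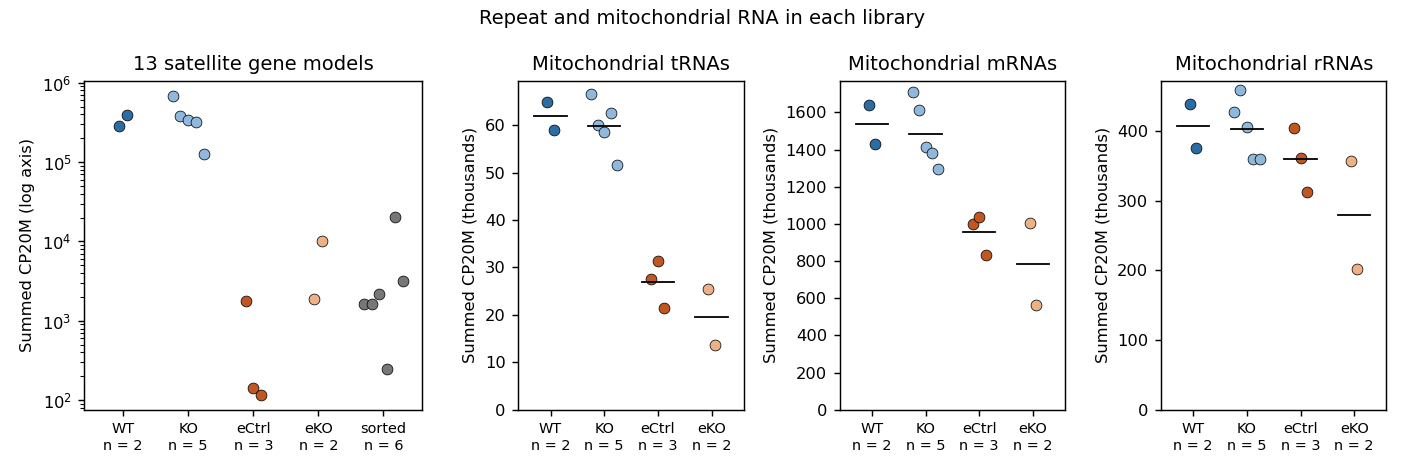
Summed CP20M of the 13 satellite gene models (log axis) and of mitochondrial tRNAs, mRNAs and rRNAs (in units of 1000), with 1 point per library and a line at the group mean in the mitochondrial panels. Satellite sums were 280879 and 390271 in WT and 117 to 1774 in eCtrl crypts, and tRNA sums 58896 and 64906 against 21521 to 31354.

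Mitochondrial transcripts formed the other large group. The mitochondrial genome is transcribed as long strands from which tRNAs are cut out between the mRNAs and rRNAs. Mitochondrial genes took 10.7% and 9.31% of the reads in WT against 7.16%, 7.15% and 5.82% in eCtrl, and 8.53% to 11.0% in KO against 6.93% and 3.88% in eKO. Of 36 mitochondrially encoded genes tested, 14 were called, all of them tRNAs lower in eCtrl, beside 0.281% of all genes. Summed tRNA levels were 64906 and 58896 CP20M in WT against 27593, 31354 and 21521 CP20M in eCtrl. Summed mRNA levels were 1639881 and 1429932 against 1000802, 1038817 and 831503 CP20M. These sums follow the abundant mRNAs. The much lower *mt-Co2* was higher in eCtrl (347 and 252 against 766, 640 and 455 CP20M, log2 difference 1.01, adjusted p = 0.12). Means of *mt-Atp6*, *mt-Atp8* and *mt-Co3* were also higher there (log2 differences 0.61, 0.35 and 0.24), none past the test. All 31-base words of *mt-Co2* recur in other annotated genes. The rRNA sums overlapped, with 438848 and 375266 CP20M in WT and 404222, 361091 and 312516 CP20M in eCtrl.

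The tRNAs did not move as a block. *mt-Ts1*, a serine tRNA, had 4884 and 3630 CP20M in WT against 378, 777 and 315 CP20M in eCtrl (log2 difference -3.19, SE 0.34, adjusted p = 0.0077). *mt-Ta*, the alanine tRNA, had 2171 and 2033 against 365, 257 and 171 CP20M (log2 difference -3.01, SE 0.27, adjusted p = 0.0033). *mt-Ts2* (781 and 856 against 76, 147 and 71 CP20M) and *mt-Tl2* (794 and 969 against 81, 184 and 67 CP20M) were likewise called. In contrast, *mt-Ti*, the isoleucine tRNA, had 4975 and 4164 CP20M in WT and 5063, 5423 and 3694 CP20M in eCtrl, overlapping between groups (log2 difference 0.04, adjusted p = 0.94). Both called tRNAs with the largest differences and *mt-Ti* are printed whole, as they are of the same length and stood at opposite ends of this range. They lie at chrM:5018-5086 (minus strand), chrM:6870-6938 (minus strand) and chrM:3706-3774 (plus strand) of GRCm38, in that order.
mt-Ta: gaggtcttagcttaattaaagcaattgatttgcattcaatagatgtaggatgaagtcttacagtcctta
mt-Ts1: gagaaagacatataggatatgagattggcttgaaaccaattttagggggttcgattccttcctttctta
mt-Ti: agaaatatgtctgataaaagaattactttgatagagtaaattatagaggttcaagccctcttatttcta

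The median log2 difference of the 21 tRNAs tested was -1.43, and -2.00 in the animals labelled knockout. *mt-Co1*, which encodes a subunit of cytochrome oxidase, had 560446 and 472519 CP20M in WT against 366081, 334526 and 301255 CP20M in eCtrl, a separation of the groups that did not pass the test (log2 difference -0.63, adjusted p = 0.34). The rRNA *mt-Rnr2* had 266838 and 227875 against 249727, 218662 and 191066 CP20M (log2 difference -0.17, adjusted p = 0.78). *mt-Nd3* and its neighbours *mt-Tg*, *mt-Tr* and *mt-Nd4l* were low in eCtrl1 and are described with the variation among mice. Other classes of short RNA lay on both sides, with medians of -0.32 over 125 snoRNA genes and -0.57 over 25 snRNA genes, but 0.015 over 147 microRNA genes, 0.072 over 13 scaRNA genes and 0.13 over 36 genes of the class misc_RNA. Genes whose longest transcript was at most 200 bases had a median log2 difference of -0.13, against 0.06 over all genes.

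Processed pseudogenes, copies of mRNAs set back into the genome, were on the other side. Of 302 tested, 18 were called higher in eCtrl and 0 higher in WT by limma, beside 0.288% and 0.281% of all genes (108 and 8 at an unadjusted p under 0.05, 10 and 2 by edgeR, 32 and 4 by DESeq2). At the wider threshold 75 of these pseudogenes were higher in eCtrl and 5 in WT (2.56% and 1.35% of all genes). Their median log2 difference was 0.39, and 0.38 in the animals labelled knockout. All 20 pseudogenes called higher in eCtrl shared much of their sequence with other genes, since 57.8% to 100% of their 31-base words (median 93.1%) recurred elsewhere in the annotated transcripts. Beside the 18, these were 1 transcribed processed pseudogene and the unprocessed *Gm28437* (528 and 390 against 1629, 1804 and 1027 CP20M). All words of *Gm28437* occur in the mitochondrial *mt-Co3*, so its reads may be mitochondrial, which was not tested. For 15 of these 20 the most similar coding gene was a ribosomal protein gene. The coding gene itself was called at the wider threshold in 1 of 20 cases, and the median log2 difference was 0.22 for the coding genes against 1.51 for the pseudogenes.

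*Rpl10a-ps1*, at chr1:64993951-64994604 (GRCm38, minus strand), had 293 and 290 CP20M in WT and 709, 705 and 710 CP20M in eCtrl (log2 difference 1.25, SE 0.12, adjusted p = 0.0053). All of its 654 bases were identical to the ribosomal protein gene *Rpl10a*, which had 4301 and 4495 against 6021, 4605 and 4872 CP20M (log2 difference 0.22). *Gm8430*, with 470 of 471 bases identical to *Rps27a*, had 120 and 105 against 360, 355 and 339 CP20M (log2 difference 1.56, SE 0.16, adjusted p = 0.0068). *Gm9843*, similar to *Fau*, had 235 and 236 against 660, 621 and 549 CP20M. *AC147029.1*, similar to *Rpl17*, had 88 and 114 against 370, 343 and 310 CP20M. Reads from such copies and from their parent genes could not be told apart where the sequences are the same.

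*Rps6-ps1* (chr15:76337616-76338362, plus strand) differed enough from its parent to be told from it in places. It had 38 and 66 CP20M in WT against 261, 237 and 221 CP20M in eCtrl (log2 difference 2.04, SE 0.24, adjusted p = 0.014), while *Rps6* had 5976 and 6262 against 6024, 5055 and 5009 CP20M (log2 difference -0.19). Of its 747 bases 733 were identical to *Rps6* in an ungapped comparison. Its opening 180 bases are shown to give an idea of how few positions separate the copies, with the 2 differing bases in capitals.
Rps6-ps1: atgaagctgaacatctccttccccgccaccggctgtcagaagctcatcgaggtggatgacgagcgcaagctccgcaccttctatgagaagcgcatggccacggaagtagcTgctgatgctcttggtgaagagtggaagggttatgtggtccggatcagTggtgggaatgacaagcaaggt

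Over all genes, the share called at the wider threshold was greater among those with much shared sequence. It was 4.15% among 3013 genes with no 31-base word in another gene, 2.73% where up to 5% of words were shared, 2.96% between 5% and 50%, 10.6% between 50% and 90%, and 11.8% above 90%. The protein-coding gene *Gm4737*, of whose words 95.6% recur elsewhere, had 46 and 30 CP20M in WT and 790, 308 and 365 CP20M in eCtrl (log2 difference 3.27, SE 0.38, adjusted p = 0.012). It was thus uncertain in the same sense, and the eKO libraries had 1030 and 46 CP20M. Cytosolic ribosomal protein genes themselves, 76 tested, had a median log2 difference of 0.17 with 2 members higher in eCtrl and 0 in WT at the wider threshold (0 in both directions at an adjusted p under 0.05 by limma, edgeR and DESeq2, and 16 and 2 at an unadjusted p under 0.05). Of all genes, 2.56% were higher in eCtrl at the wider threshold. *Rpl4* and *Rpl7*, the most abundant ribosomal protein genes, did not pass. In the animals labelled knockout 75 of the 76 means were higher in eKO, with a median of 0.48 and 22 called.

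The difference between lines also followed base composition. Among protein-coding genes, the median log2 difference was -0.13 for 756 genes with a GC content of up to 40%, -0.08 for 2430 genes between 40% and 45%, 0.02 for 3171 genes between 45% and 50%, 0.13 for 3179 genes between 50% and 55%, and 0.21 for 2730 genes above 55%. The share of genes with a higher mean in eCtrl grew from 28.7% to 79.0% across these classes. In the animals labelled knockout the corresponding medians were -0.10, -0.04, 0.04, 0.18 and 0.25. Shifts of this size lie below the 1.5-fold limit of a call, and line and table cannot be told apart.

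**Figure D2:**
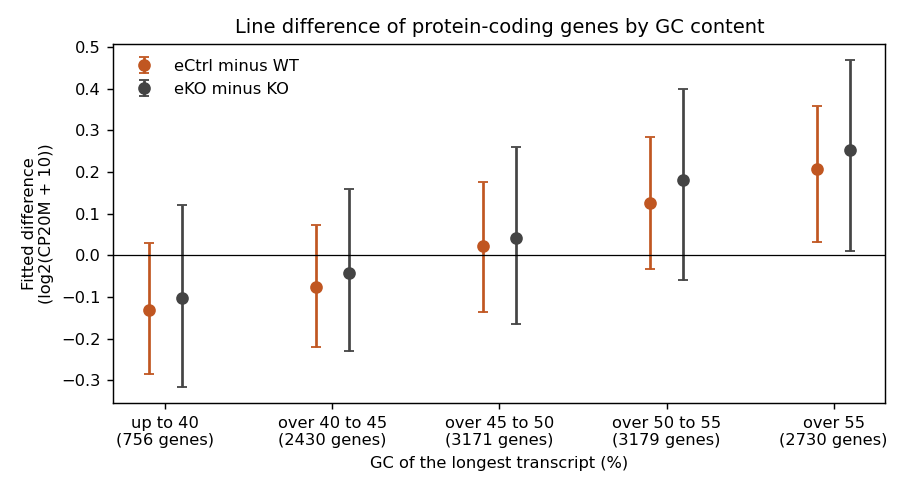
Fitted line difference, on the log2(CP20M + 10) scale, of protein-coding genes in 5 classes of GC content of the longest transcript, in control crypts (eCtrl minus WT) and in crypts labelled knockout (eKO minus KO). Points are medians and bars the lower and upper quartiles over genes; the control median rises from -0.13 in the lowest class to 0.21 in the highest.

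*Egr1*, *Hbegf* and *Areg* were among the genes called higher in WT. *Egr1*, a transcription factor induced within minutes by growth factors and stress, had 2485 and 2096 CP20M in WT against 532, 353 and 344 CP20M in eCtrl (log2 difference -2.48, SE 0.20, adjusted p = 0.0019). The KO libraries lay between 333 and 765 CP20M and the eKO libraries at 517 and 266 CP20M, so that WT stood above all 10 other crypt libraries. The difference of the line differences did not pass the test (adjusted p = 0.57). *Hbegf*, an EGF receptor ligand, had 834 and 722 CP20M in WT against 318, 261 and 275 CP20M in eCtrl (log2 difference -1.42, SE 0.15, adjusted p = 0.0077), and *Areg*, another such ligand, had 711 and 915 against 303, 356 and 426 CP20M (log2 difference -1.15, SE 0.18, adjusted p = 0.046). Of the 43 genes higher in WT, 4 had WT above every other crypt library (*Egr1*, *Hbegf*, *Hspa1b* and *Gm10767*), as did 2.28% of all genes.

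Of the 20 immediate early genes tested, 1 was called, *Egr1* (0.281% of all genes were called higher in WT), and 3 were higher in WT at the wider threshold (1.35% of all genes), with a median log2 difference of -0.33 over the list, against 0.08 in the animals labelled knockout. These were *Egr1*, *Fosl1* (112 and 111 against 16, 28 and 48 CP20M) and the growth regulator *Myc* (1335 and 1313 against 772, 894 and 916 CP20M). The abundant Krüppel-like factors gave opposite differences, *Klf4* with 6666 and 7179 against 7764, 10143 and 9938 CP20M and *Klf6* with 6538 and 7296 against 5276, 4902 and 6041 CP20M, neither of them past the test.

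Heat shock genes, which encode chaperones for unfolded proteins, leaned to WT. Of 18 tested, 1 was called (0.281% of all genes were called higher in WT) and 6 were higher in WT at the wider threshold (1.35% of all genes), with a median log2 difference of -0.36. *Hspa1b*, an inducible HSP70, had 6924 and 3999 CP20M in WT against 357, 1194 and 833 CP20M in eCtrl (log2 difference -2.87, SE 0.45, adjusted p = 0.044), with 834 to 2462 CP20M in KO and 213 and 415 CP20M in eKO. Its twin *Hspa1a* had 3563 and 2021 against 66, 376 and 322 CP20M (adjusted p = 0.057). The 2 genes are near-identical and 68.1% of the words of *Hspa1b* recur elsewhere, so their split is uncertain. *Hsph1* (5867 and 3146 against 725, 1765 and 1285 CP20M), *Hsp90aa1*, *Hspa8* and *Dnajb1* completed the 6. *Zfand2a*, a gene of the same response, was called outside the list (826 and 756 against 394, 351 and 367 CP20M, adjusted p = 0.016).

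The core of the heat shock element, the letters GAANNTTC, was searched on both strands upstream of the start. It occurred within 250 bases of the start in 4 of 15 genes of the list with a RefSeq promoter (26.7%: *Hspa1a*, *Hspa1b*, *Hspd1* and *Hspe1*). Of 32851 single promoters 6.69% held a match. A gene of the list counted where any of its promoters matched, so these shares are unlike measures. Among the genes of the list higher in WT at the wider threshold, only the near-identical *Hspa1a* and *Hspa1b* were counted with a match. The sequence of *Hspa1b* (chr17:34959239-34959488, GRCm38.p6, minus strand) is shown as the called member, with the match in capitals.
Hspa1b: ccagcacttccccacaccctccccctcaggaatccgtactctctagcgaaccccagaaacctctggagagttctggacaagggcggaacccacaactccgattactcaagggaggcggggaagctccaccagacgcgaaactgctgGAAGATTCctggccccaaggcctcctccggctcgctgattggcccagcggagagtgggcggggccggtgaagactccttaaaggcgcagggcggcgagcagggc

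**Figure D3:**
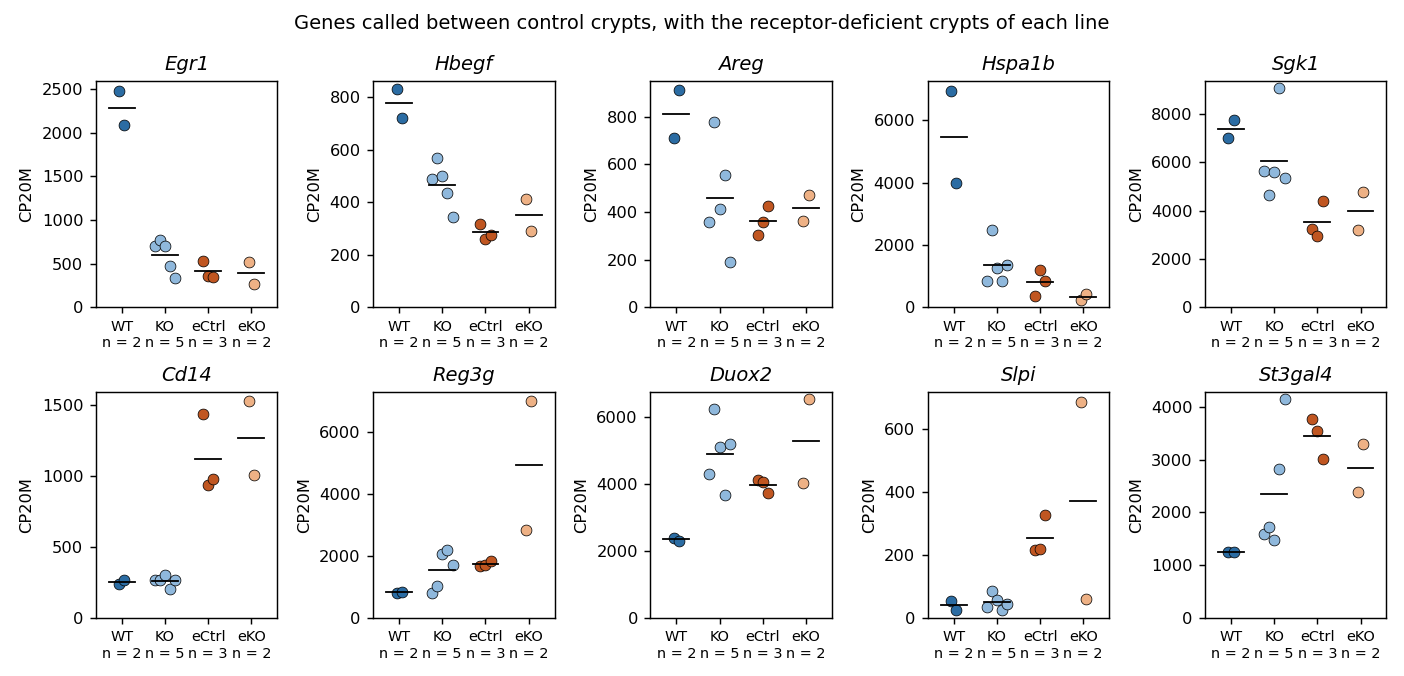
CP20M of 10 genes called between the control crypts, in all 12 crypt libraries, with 1 point per library and a line at the group mean. *Egr1* and *Hspa1b* were higher in both WT libraries than in any other, whereas *Cd14* was high in all 5 eCtrl and eKO libraries.

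*Sgk1*, a kinase that follows glucocorticoids and controls sodium channels, had 7009 and 7760 CP20M in WT against 3228, 2948 and 4392 CP20M in eCtrl (log2 difference -1.09, SE 0.17, adjusted p = 0.047). *Cd44*, a hyaluronan receptor of the crypt base, had 4711 and 4189 against 2629, 2234 and 2028 CP20M (log2 difference -0.96, SE 0.14, adjusted p = 0.033) and was the single called member of 14 stem cell genes, whose median log2 difference was -0.02. The transporter *Slc12a2* (16446 and 16206 against 15486, 13337 and 11360 CP20M) and *Prom1* (9827 and 9707 against 8910, 7893 and 10046 CP20M), the most abundant of that list, did not pass. Of 30 cell division genes 25 had a higher mean in WT, with a median log2 difference of -0.16, and 0 were called by limma, edgeR or DESeq2 (2 higher in eCtrl and 1 in WT at an unadjusted p under 0.05). Without eCtrl1 the median was -0.27, and 2 were called and 4 reached the wider threshold, all higher in WT. The animals labelled knockout went the other way, with a median of 0.16, 21 of 30 means higher in eKO and 0 called. *Mki67* had 8072 and 7914 against 6808, 8437 and 5281 CP20M and *Top2a* 3803 and 3843 against 3979, 3688 and 2435 CP20M, both overlapping.

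On the eCtrl side, several genes of mucosal defence were higher. *Cd14*, a co-receptor for bacterial lipopolysaccharide, had 240 and 268 CP20M in WT against 1433, 935 and 980 CP20M in eCtrl (log2 difference 2.07, SE 0.20, adjusted p = 0.0041). The KO libraries lay between 203 and 302 CP20M and the eKO libraries at 1526 and 1005 CP20M, so that the 2 lines did not overlap in any animal, and the difference was called there too (log2 difference 2.22). *Cd14* was listed with leukocyte markers, and the pan-leukocyte marker *Ptprc* had 413 and 374 CP20M in WT against 475, 460 and 213 CP20M in eCtrl, overlapping between groups.

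*Reg3g*, a lectin that kills gram-positive bacteria, had 813 and 829 CP20M in WT against 1657, 1694 and 1846 CP20M in eCtrl (log2 difference 1.07, SE 0.11, adjusted p = 0.0077). The KO libraries held 785 to 2196 CP20M and the eKO libraries 2842 and 6980 CP20M, a called difference without overlap. *Duox2*, the dual oxidase that makes hydrogen peroxide at the epithelial surface, had 2378 and 2297 against 4101, 4059 and 3722 CP20M (log2 difference 0.76, SE 0.11, adjusted p = 0.033). The KO libraries held 3657 to 6235 CP20M of *Duox2*, above both WT libraries, and the eKO libraries 4009 and 6532 CP20M, with no difference past the test between these (log2 difference 0.09). *Sprr2a3* had 1758 and 1981 against 3742, 3674 and 3334 CP20M (log2 difference 0.94, adjusted p = 0.016), with 73.6% of its words shared with its neighbours of the same family. *Slpi*, a secreted protease inhibitor outside the lists, had 54 and 25 against 214, 218 and 325 CP20M (log2 difference 2.44, SE 0.31, adjusted p = 0.017).

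Of 24 antimicrobial and acute phase genes tested, 3 were called higher in eCtrl (0.288% of all genes). At the wider threshold 9 were higher there (2.56% of all genes) and 0 in WT (1 at an unadjusted p under 0.05), with a median log2 difference of 0.73. Beyond those above, the 9 included *Reg3b* (1857 and 1220 against 4995, 2639 and 2764 CP20M), the inducible nitric oxide synthase *Nos2* (8 and 39 against 94, 122 and 121 CP20M), the oxidase maturation factor *Duoxa2* (176 and 218 against 576, 431 and 367 CP20M), *Saa1*, *Wfdc2* and the cytokine *Il18*. The most abundant members gave smaller differences, *Pigr*, the carrier of IgA, with 53783 and 66585 against 71033, 72955 and 60290 CP20M and *Lypd8*, which keeps flagellated bacteria off the surface, with 52529 and 53297 against 60114, 55992 and 74171 CP20M. *Il23a* (6 and 16 against 105, 73 and 64 CP20M) and *Steap4* (24 and 48 against 110, 161 and 152 CP20M) were named after their values were seen.

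Interferon-stimulated and antigen presentation genes gave smaller differences. Of 34 interferon-stimulated genes, 3 were higher in eCtrl at the wider threshold (*Ifit3*, *Oas1g* and *Irf9*), with a median log2 difference of 0.29. Without eCtrl1 the count was 13, beside 1201 of all genes. *Ifih1*, the most abundant, had 1907 and 1815 against 1895, 1865 and 2262 CP20M. Of 24 antigen presentation genes 0 were called by limma, edgeR or DESeq2 (3 higher in eCtrl at an unadjusted p under 0.05), and *B2m* had 8290 and 9804 against 7923, 7547 and 8501 CP20M, and *H2-K1* 7923 and 6857 against 9468, 7392 and 10510 CP20M. Among 19 gasdermin and pyroptosis genes only *Il18* reached the wider threshold, while *Gsdmc2* (5670 and 10503 against 12376, 12965 and 6268 CP20M) and *Gsdmc4* (11866 and 21121 against 25839, 24688 and 14166 CP20M) overlapped.

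*St3gal4*, a sialyltransferase that caps glycans of glycoproteins, had the smallest p among genes higher in eCtrl. It stood at 1244 and 1245 CP20M in WT against 3773, 3535 and 3008 CP20M in eCtrl (log2 difference 1.45, SE 0.13, adjusted p = 0.0032). The KO libraries covered 1481 to 4142 CP20M and the eKO libraries 2377 and 3291 CP20M, so that WT was below all 10 other crypt libraries. The same held for 7 of the 44 genes higher in eCtrl (*Aacs*, *Duox2*, *Flcn*, *Ptk6*, *Pxk*, *St3gal4* and *Zfp467*), as for 3.52% of all genes, while 0 of 44 had eCtrl above all 9 other libraries (0.529% of all genes). Of 30 glycosylation genes, 1 was called and 2 were higher in eCtrl at the wider threshold (*St3gal4* and *St3gal6*), with a median log2 difference of 0.06, equal to that of all genes. The abundant *B4galnt2* (11707 and 12010 against 10656, 9431 and 10037 CP20M) and *C1galt1* (12263 and 10569 against 9940, 8717 and 8348 CP20M) did not pass.

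Cholesterol synthesis showed many small differences of the same sign. In this pathway, hydroxymethylglutaryl-CoA is turned into squalene and then into sterols, under the control of SREBP2. Of 25 genes tested, 0 were called at an adjusted p under 0.05 by limma (18 at an unadjusted p under 0.05, 0 by edgeR and 4 by DESeq2), and 11 were higher in eCtrl at the wider threshold, where 2.56% of all genes were, or 7 by median of ratios. The median log2 difference was 0.48, with 24 of 25 means higher in eCtrl. *Hmgcs1*, an early enzyme, had 2911 and 3461 CP20M in WT against 5154, 4975 and 4728 CP20M in eCtrl (log2 difference 0.64, adjusted p = 0.074). *Sqle* had 869 and 1044 against 1551, 1513 and 1711 CP20M, again without overlap. *Stard4*, a sterol carrier, had 3627 and 4402 against 4330, 5164 and 4184 CP20M and did not pass. In the animals labelled knockout 25 of 25 means were higher in eKO, with a median of 0.58 and 9 called.

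Of 28 genes of fatty acid handling and ketogenesis, 1 reached the wider threshold, the desaturase *Scd1*, higher in WT (2075 and 2085 against 1288, 871 and 892 CP20M), while *Scd2* (10404 and 13719 against 10703, 14849 and 11996 CP20M) did not pass. Of 43 xenobiotic genes, *Cyp2d34* was higher in eCtrl (951 and 811 against 1540, 2007 and 3031 CP20M) and *Cyp3a44* in WT (251 and 125 against 45, 6 and 10 CP20M) at that threshold, and *Cyp2c55* (56843 and 55408 against 59025, 29867 and 41395 CP20M) and *Abcb1a* (20390 and 21556 against 20848, 16464 and 23376 CP20M) overlapped. In the animals labelled knockout, 26 of 28 fatty acid genes had a higher mean in eKO, with a median of 0.47 and 9 called. For the xenobiotic genes these were 39 of 43, with a median of 0.57, and 12 called higher in eKO and 1 in KO.

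Circadian clock genes differed in both directions. In the clock, BMAL1 (*Arntl*) with CLOCK or NPAS2 drives the E-box genes *Per*, *Cry*, *Nr1d1*, *Dbp* and *Tef*, whose products feed back on it, so that the 2 arms peak at different hours. Of 23 genes tested, 1 was called (*Sgk1*, also listed here), and at the wider threshold 4 were higher in eCtrl and 5 in WT (2.56% and 1.35% of all genes). *Dbp* had 83 and 148 CP20M in WT against 290, 632 and 985 CP20M in eCtrl (log2 difference 2.25, SE 0.45, adjusted p = 0.093). *Nr1d1*, the repressor REV-ERB alpha, had 578 and 657 against 1212, 2246 and 2636 CP20M (log2 difference 1.63, SE 0.29, adjusted p = 0.063), and *Tef* had 243 and 376 against 469, 1119 and 1238 CP20M. The groups were apart in each of these, and eCtrl1 was the lowest eCtrl library.

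The genes of the positive arm and *Cry1* were on the other side. *Arntl* had 1170 and 1234 CP20M in WT against 819, 564 and 500 CP20M in eCtrl (log2 difference -0.96, SE 0.20, adjusted p = 0.10), *Npas2* 1233 and 1103 against 730, 736 and 767 CP20M, and *Cry1* 706 and 485 against 334, 229 and 213 CP20M. *Clock* (4397 and 4474 against 2627, 4022 and 3405 CP20M) did not pass, nor did *Bhlhe40* (2956 and 2476 against 2066, 3293 and 3478 CP20M). *Per1*, *Per2* and *Per3* had log2 differences of 0.10, -0.17 and 1.24, none past the test, with eCtrl1 apart from eCtrl2 and eCtrl3 in each. In the animals labelled knockout *Dbp*, *Nr1d1*, *Tef*, *Arntl*, *Npas2* and *Cry1* were again on the same sides, with log2 differences of 1.77, 1.24, 1.19, -0.95, -0.66 and -1.12. The hour at which the tissue was taken is not given in the sources used here.

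The E-box CACGTG, searched on both strands in the 250 bases before each RefSeq start, occurred in 6 of 19 genes of the clock list with a promoter in the table (31.6%: *Per1*, *Cry1*, *Tef*, *Ciart*, *Fkbp5* and *Sgk1*). These 6 include genes higher in eCtrl and genes higher in WT. Of 32851 single promoters 6.02% held a match. A gene of the list counted where any of its promoters matched, so these shares are unlike measures. Both listed promoters of *Tef*, at chr15:81802423-81802672 and chr15:81811164-81811413 (GRCm38.p6, plus strand), held 1 match each, shown in capitals as the only gene of the list with a match at separate starts that was higher in eCtrl at the wider threshold.
Tef, upstream start: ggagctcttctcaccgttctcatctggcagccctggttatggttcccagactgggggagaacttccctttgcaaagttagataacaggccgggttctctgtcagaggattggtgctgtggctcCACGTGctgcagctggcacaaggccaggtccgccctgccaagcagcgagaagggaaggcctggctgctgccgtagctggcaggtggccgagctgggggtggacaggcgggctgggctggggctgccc
Tef, downstream start: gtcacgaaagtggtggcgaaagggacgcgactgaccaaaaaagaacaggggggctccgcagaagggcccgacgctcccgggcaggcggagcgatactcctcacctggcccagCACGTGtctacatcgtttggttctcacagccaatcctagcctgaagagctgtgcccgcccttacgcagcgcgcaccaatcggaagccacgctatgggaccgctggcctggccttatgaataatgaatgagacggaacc

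**Figure D4:**
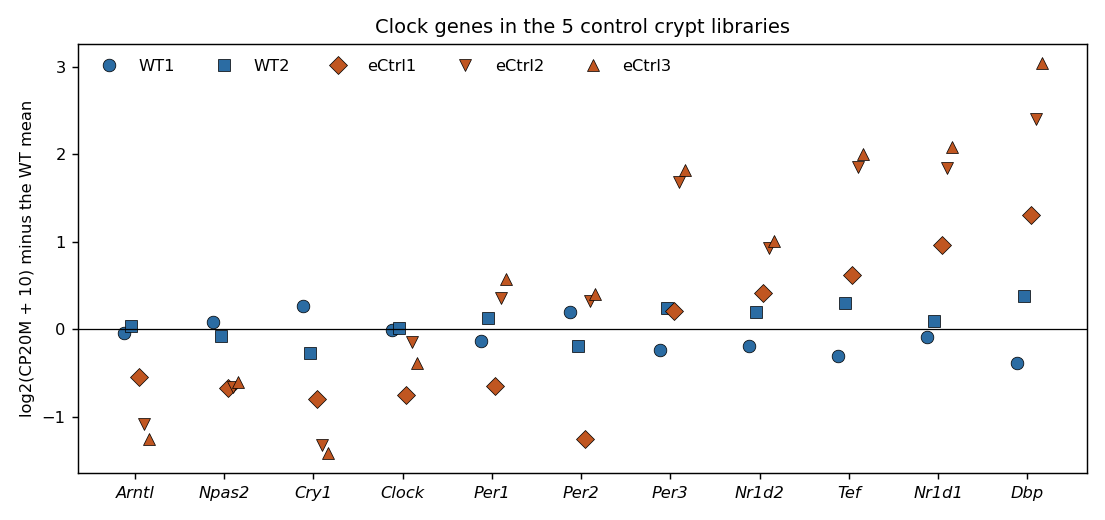
Level of 11 clock genes in the 5 control crypt libraries, as log2(CP20M + 10) minus the mean of the 2 WT libraries. For *Arntl*, *Npas2* and *Cry1* all eCtrl libraries lay below both WT libraries, and for *Nr1d2*, *Tef*, *Nr1d1* and *Dbp* above them, with eCtrl1 nearest to WT in these 4.

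Cell type markers of the epithelium gave differences below the main threshold, and in these bulk libraries fewer cells of a type and less RNA per cell cannot be told apart. Tuft cell markers leaned to eCtrl, where 14 of 15 had a higher mean (58.7% of all genes) and 7 reached the wider threshold (2.56% of all genes; 5 by median of ratios). At an adjusted p under 0.05, 0 were called by limma and edgeR and 1 by DESeq2, and 11 had an unadjusted p under 0.05. The median log2 difference was 0.73, but 0.06 in the animals labelled knockout. The taste channel *Trpm5* had 328 and 277 CP20M in WT against 566, 490 and 502 CP20M in eCtrl (adjusted p = 0.083), *Sh2d6* had 120 and 107 against 264, 212 and 263 CP20M, and the kinase *Dclk1*, the most abundant, had 741 and 688 against 1129, 986 and 843 CP20M (adjusted p = 0.22).

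Enteroendocrine genes leaned to WT, with 20 of 21 means higher there and a median log2 difference of -0.37, against 0.06 over all genes. Their summed level was 19712 and 12170 CP20M in WT against 11699, 8947 and 13822 CP20M in eCtrl, where WT1 was the highest library and WT2 lay within the eCtrl range. At the wider threshold 3 were higher in WT (1.35% of all genes) and 0 in eCtrl (0 at an adjusted p under 0.05 by limma and edgeR, 1 by DESeq2, and 5 at an unadjusted p under 0.05). These were the secretory cell factor *Insm1* (104 and 73 against 37, 30 and 50 CP20M), the glucagon gene *Gcg* (1039 and 824 against 485, 366 and 713 CP20M) and *Tph1*, which makes serotonin in enterochromaffin cells (2530 and 1365 against 996, 846 and 1269 CP20M). The granins overlapped, *Chga* with 3896 and 1886 against 2215, 1755 and 2932 CP20M and *Chgb* with 7646 and 4210 against 4797, 2956 and 4673 CP20M, and WT1 was the highest library of both. In the animals labelled knockout 10 of the 21 means were higher in eKO and the median was -0.13.

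Of 20 goblet cell genes 3 were higher in eCtrl at the wider threshold (2.56% of all genes). *Clca1*, a protease of the mucus, had 26414 and 22889 CP20M in WT against 71286, 83324 and 38684 CP20M in eCtrl, and the mucus protein *Fcgbp* 46873 and 53433 against 114791, 123671 and 77602 CP20M, without overlap. *Muc2* itself had 329720 and 275566 against 406858, 274151 and 243604 CP20M with overlapping groups. Of 20 colonocyte genes *Car4* alone reached that threshold (4586 and 3909 against 6149, 5876 and 9417 CP20M), while *Car1* (105749 and 111936 against 120418, 75676 and 91882 CP20M) and *Ceacam1* (76252 and 79281 against 54404, 80654 and 80020 CP20M) overlapped. Among markers of stroma, *Dcn* was higher in WT (1175 and 492 against 185, 255 and 133 CP20M) and *Pecam1* in eCtrl (168 and 125 against 206, 233 and 284 CP20M) at the same threshold. Among the genes listed as leukocyte markers, the receptor *Kit* overlapped (2466 and 2524 against 3369, 2348 and 2423 CP20M). It stood above *Ptprc* in each library (413 and 374 against 475, 460 and 213 CP20M), and which cells it came from was not tested.

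Of 21 genes of position along the gut 1 was higher on each side at the wider threshold. The mean was higher in eCtrl for 17, with a median log2 difference of 0.30, and without eCtrl1 6 were called higher in eCtrl and 1 in WT. *Hoxb13*, a marker of the distal colon, had 576 and 657 CP20M in WT against 865, 1976 and 2071 CP20M in eCtrl (log2 difference 1.30, adjusted p = 0.15), and was called in the animals labelled knockout (log2 difference 1.04). *Hoxb8* was higher in WT (459 and 412 against 274, 253 and 282 CP20M). *Hnf4a* (11786 and 12318 against 11039, 12384 and 13075 CP20M) overlapped.

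Of 36 ion and water transport genes 3 were higher in eCtrl at the wider threshold (2.56% of all genes), the sodium-proton exchanger *Slc9a3* (2589 and 1999 against 2905, 4265 and 5475 CP20M), the chloride channel *Ano1* (1452 and 1428 against 1816, 3596 and 3441 CP20M) and the calcium-binding *S100g*. Without eCtrl1, 13 were. The sulfate carrier *Slc26a2* had 25045 and 29030 against 19084, 28664 and 32208 CP20M. Among 10 nuclear long noncoding RNAs *Neat1* was higher in eCtrl at that threshold (23650 and 15866 against 26756, 35358 and 38710 CP20M), beside 52261 to 74335 CP20M in KO and 26350 and 43619 CP20M in eKO, and *Malat1* overlapped (126680 and 116299 against 85263, 163938 and 188499 CP20M).

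Without eCtrl1 the wider threshold took in 1201 genes higher in eCtrl and 539 in WT, in place of 391 and 206, and the counts of most lists moved. On the eCtrl side the interferon-stimulated genes went from 3 to 13, ion and water transport from 3 to 13, gut position from 1 to 7, glycosylation from 2 to 6, nuclear long noncoding RNAs from 1 to 4, *Trim* genes from 0 to 3, and the colonocyte, strain-variable and gasdermin lists each from 1 to 3. Tuft cell markers stayed at 7, goblet cell genes went from 3 to 4, antimicrobial genes from 9 to 10 and antigen presentation from 0 to 2, whereas cholesterol synthesis went from 11 to 10 and ribosomal protein genes from 2 to 0. On the WT side xenobiotic genes went from 1 to 8 (3 in eCtrl), enteroendocrine and immediate early genes each from 3 to 6, cell division from 0 to 4, fatty acid handling from 1 to 4, stem cell genes from 1 to 2 and mitochondrially encoded genes from 20 to 27, while heat shock genes stayed at 6. The clock genes stood at 6 on each side. At an adjusted p under 0.05 there were then 9 cholesterol synthesis genes, 9 interferon-stimulated genes and 13 ion and water transport genes higher in eCtrl, and 8 xenobiotic genes higher in WT. The median log2 difference changed sign in 4 lists, from 0.07 to -0.10 in xenobiotic genes, from 0.03 to -0.05 in fatty acid handling, from -0.47 to 0.02 in stroma, vessels and nerve, and from -0.01 to 0.31 in the clock genes.

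Within the eCtrl group, single mice differed from each other by more than the lines did for some genes. eCtrl1 lay more than 2-fold above both other eCtrl libraries in 99 genes and more than 2-fold below in 366, against 20 and 38 for eCtrl2 and 23 and 38 for eCtrl3. Its deviation resembled the difference between eKO1 and eKO2, since 405 of the 465 genes had the same sign there. The share of all tested genes with the same sign is not given. The correlation over 15298 genes was 0.578. Both differences rest on separate libraries, and this describes genes of single mice and not replicates. These genes were named after their values were seen and carry no test.

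*Meg3*, an imprinted noncoding RNA on chromosome 12 expressed from the maternal allele, had 76 CP20M in eCtrl1 against 1837 and 2589 CP20M in eCtrl2 and eCtrl3, and 72 against 2929 CP20M in eKO1 and eKO2. WT stood between, at 565 and 428 CP20M, and KO at 1436 to 1722 CP20M. Its neighbours of the same imprinted cluster followed, *Rian* with 107 against 1102 and 1590 CP20M and the paternally expressed *Rtl1* with 6 against 124 and 140 CP20M. *Trpv6*, the epithelial calcium channel, had 11 CP20M in eCtrl1 against 658 and 507 CP20M, and *S100g*, the calcium-binding protein calbindin-D9k, 524 against 4666 and 7314 CP20M. Both WT libraries were low for these (14 and 21 CP20M of *Trpv6*, 211 and 412 CP20M of *S100g*), as was eKO1 (16 and 353 CP20M) but not eKO2 (355 and 4883 CP20M).

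The mitochondrial *mt-Nd3*, a subunit of complex I, had 73 CP20M in eCtrl1 and 41 CP20M in eKO1, against 1323 and 1001 CP20M in eCtrl2 and eCtrl3, 715 CP20M in eKO2, and 2954 and 2881 CP20M in WT. Its neighbours were also low in eCtrl1, *mt-Tg* with 139 against 603 and 495 CP20M, *mt-Tr* with 19 against 401 and 310 CP20M and *mt-Nd4l* with 89 against 358 and 282 CP20M. Of the 31-base words, 98.1% of those of *mt-Nd3* and 98.9% of those of *mt-Nd4l* recur in other annotated genes, and 0% for *mt-Tg* and *mt-Tr*. The adhesion molecule *Ceacam2* had 21916 CP20M in eCtrl1 against 2987 and 2970 CP20M, with 18895 and 29557 CP20M in both eKO libraries and 2959 and 2843 CP20M in WT. The histone gene *Hist1h4m* had 441 CP20M in eCtrl1 and 866 and 722 CP20M in WT but 8 and 22 CP20M in eCtrl2 and eCtrl3.

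*Retnlb*, *Ang4*, *Pla2g4c*, *Itln1* and *Mptx1*, chosen after their values were seen, split the eCtrl mice in another way. *Retnlb*, which acts on gram-negative bacteria, had 25988 CP20M in eCtrl1, 6379 CP20M in eCtrl2 and 665 CP20M in eCtrl3, with 917 and 2001 CP20M in WT and 16723 and 14568 CP20M in eKO. The ribonuclease *Ang4* had 7504, 6616 and 462 CP20M, the phospholipase *Pla2g4c* 2403, 2627 and 43 CP20M, the lectin *Itln1* 477, 278 and 17 CP20M, and *Mptx1* 24193, 20588 and 7569 CP20M, in that order, and eCtrl3 was the low library of each. The lactoperoxidase gene *Lpo* was high in eCtrl2 alone of the controls (5634 against 353 to 558 CP20M) and in both eKO libraries (8396 and 6622 CP20M). eCtrl3 had the most of the interferon gene *Ifit1* (871 against 300 and 407 CP20M) and of the disaccharidase *Sis* (2833 against 787 and 873 CP20M).

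Collagen transcripts of stromal cells varied inside both lines. *Col1a1* had 307 and 86 CP20M in WT and 27, 454 and 140 CP20M in eCtrl, and *Col3a1* 653 and 234 against 73, 707 and 244 CP20M, so that WT1 and eCtrl2 were the high libraries and eCtrl1 the low one. These are the libraries with the highest and the lowest stromal sums given above.

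**Figure D5:**
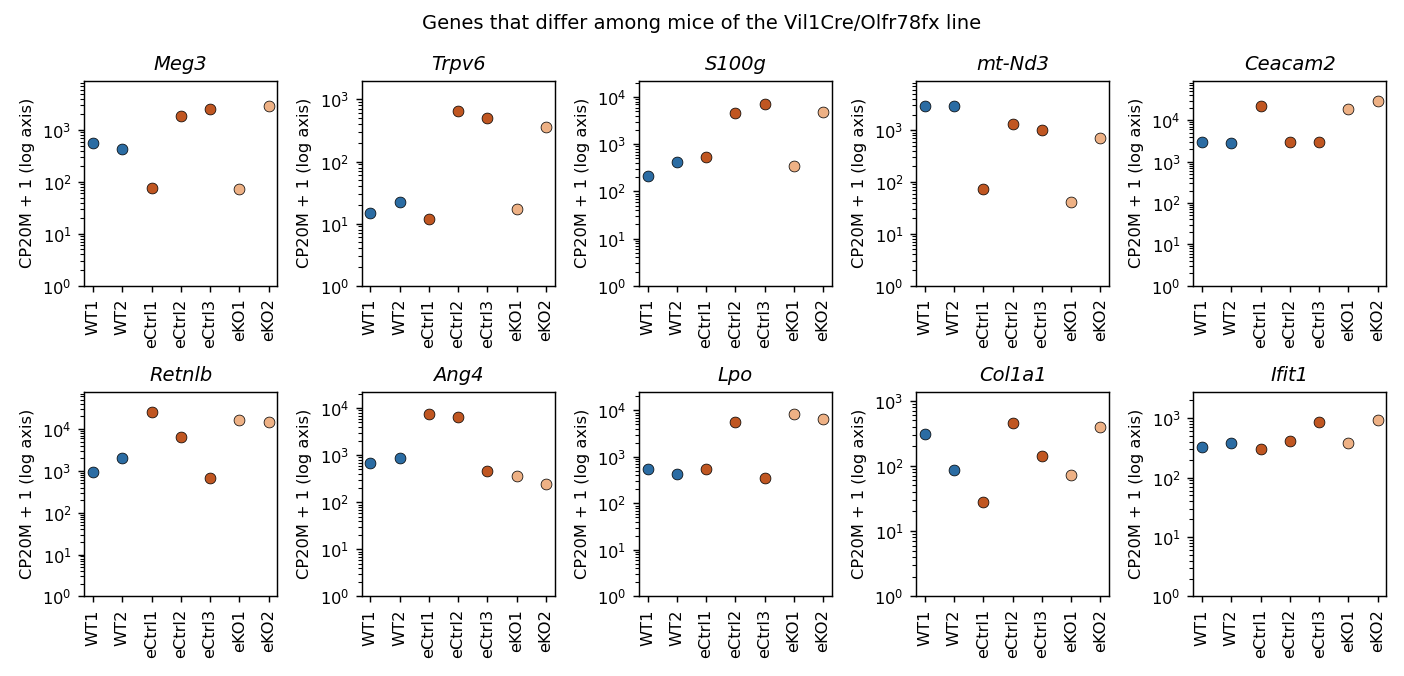
CP20M + 1 on a log axis for 10 genes that differ among mice of the Vil1Cre/Olfr78fx line, with 1 point per library. eCtrl1 and eKO1 were low for *Meg3*, *Trpv6*, *S100g* and *mt-Nd3*, and eCtrl3 stood near WT for *Retnlb* and *Ang4*.

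The region around *Olfr78* was examined because the engineered alleles of the 2 lines lie there. Of the control mice only eCtrl2 carried such an allele of *Olfr78*, so that the comparison cannot test the alleles. Within 5000000 bases of the gene (chr7:102738511-102759471, GRCm38) 107 genes were tested, 0 were called by limma, edgeR or DESeq2 (5 higher in eCtrl and 3 in WT at an unadjusted p under 0.05), and 1 reached the wider threshold (0.935%, against 3.90% of all genes), the pseudogene *Gm27149*, higher in WT (541 and 453 against 253, 382 and 296 CP20M). The median log2 difference of the region was 0.08. Its 10 tested *Trim* genes, antiviral ubiquitin ligases, all had a higher mean in eCtrl with a median of 0.28, and 0 passed by limma, edgeR or DESeq2 or at an unadjusted p under 0.05. Without eCtrl1 the median was 0.50, with 2 called and 3 at the wider threshold, all higher in eCtrl. *Trim30d* had 392 and 292 against 337, 593 and 795 CP20M and *Trim12c* 472 and 514 against 417, 562 and 561 CP20M.

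Among 8 tested genes known to vary between inbred strains, the interferon-induced GTPase *Mx1* was higher in eCtrl at the wider threshold (104 and 50 against 146, 198 and 173 CP20M), *Wdfy1* (498 and 526 against 1056, 472 and 670 CP20M) and *Glo1* (1201 and 1241 against 1327, 1250 and 1051 CP20M) overlapped, and the median log2 difference was 0.34 over the 8. By chromosome, the share of genes at the wider threshold ran, over the autosomes and the X, from 1.65% on chromosome 17 to 5.74% on chromosome 9, which holds 10 of the satellite models. It was 33.3% on the Y (3 of 9 genes, all higher in WT) and 58.3% for the mitochondrial genome.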

How the data were processed

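Libraries of isolated colon crypts, 1 per mouse, came from both lines. Per the labels and the study's methods, crypts were freed with EDTA, RNA was extracted with on-column DNase, Ovation Solo libraries were sequenced paired-end, and reads were mapped with STAR to GRCm38 and counted with HTSeq. The authors deposited 2 tables, 1 per line, in which the counts of each library were scaled to a total of 20000000 and rounded. Before deposit, the authors had scaled and rounded both the crypt columns (here called a score) and the sorted-cell columns (a deposited signal). The names mark no difference in measure, since both hold CP20M, and the crypt values were used as expression levels. The low values are steps of 1 read, and whole reads were recovered for at least 99.8% of values in the control libraries, within the rounding.

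Tables were joined by gene ID. Genes with at least 40 CP20M (2 CPM, the minimum of the methods) in 2 or more of the 5 control libraries were tested with limma 3.58.1 (R 4.3.3) and a trend of the spread, on log2(CP20M + 10), two-sided, with Benjamini-Hochberg adjustment over 15298 genes. A call needs an adjusted p under 0.05 and more than 1.5-fold. The study's adjusted p of at most 0.2 is the wider threshold. Each table was normalized by library and the comparison crosses the tables, so that a difference in how they were made enters every value. Replicates are mice, and with 2 against 3 the p-values rest on the spread of 5 animals. edgeR 4.0.16 and DESeq2 1.42.0 were run on the recovered reads as alternatives.

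Named genes were the receptors, the 8 smallest p-values in each direction, and from each gene list up to 4 called and the 2 most abundant uncalled members, with sex-linked genes in full. Other genes were chosen after their values were seen, and some genes that the rule names are not reported here. Members and lists were chosen with earlier results of these data known. Lists were described by counts and medians. Gene types and positions came from GENCODE M21 (52489 of 52636 IDs matched), promoters from RefSeq on GRCm38.p6. Shared sequence is the percent of 31-base words found in another annotated gene.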

Additional observations from a re-analysis of the deposited data

Results flagged for a closer look

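In 2 genes the line difference itself differed between control animals and those labelled knockout, by the limma interaction over all 12 crypt libraries. *Gm8979*, an unprocessed pseudogene at chr7:106076751-106084046 (GRCm38), had 9603 and 9412 CP20M in WT, 5526, 10221 and 9320 CP20M in eCtrl and 6010 and 8853 CP20M in eKO, but 62 to 173 CP20M in KO (difference of the log2 differences 6.26, SE 0.49, adjusted p = 0.00011). *Trim12a*, an antiviral ubiquitin ligase gene at chr7:104299894-104315466, had 269 and 360 CP20M in WT, 318, 370 and 554 CP20M in eCtrl and 322 and 535 CP20M in eKO, but 3 to 13 CP20M in KO (difference 4.45, SE 0.44, adjusted p = 0.00083). Both lie on the chromosome of *Olfr78* within 5000000 bases of it. In these genes the KO group alone stood apart, and the 5 control libraries overlapped. The cause was not tested.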

How the results depend on the processing

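All 44 genes higher in eCtrl and all 43 higher in WT had the same sign under each of the 18 alternatives that tested them, whereas the counts moved. Against 87 calls (44 and 43), no filter on low values gave 4 (0 and 4), 40 CP20M in all libraries 45 (22 and 23), median of ratios 69 (26 and 43), scaling outside mitochondrial genes 68 (25 and 43), edgeR 73 (23 and 50), DESeq2 268 (136 and 132), limma without trend 59 (33 and 26), an adjusted p of at most 0.2 gave 597 (391 and 206), 1 fit of all 12 crypt libraries 131 (65 and 66), and protein-coding genes alone, chosen after seeing the data, 25 (8 and 17). Pseudocounts of 1 and 40 gave 81 and 86. Leaving out 1 library gave 2 to 1038 calls (0 to 746 higher in eCtrl, 2 to 292 in WT), with 2 calls without WT1 or WT2, 1038 without eCtrl1, 33 without eCtrl2 and 48 without eCtrl3; where a single WT library remained, it was assumed to vary like the eCtrl libraries. Libraries with the same replicate number in both groups had correlations of -0.03 and -0.03 over 2 pairs. With only 2 WT libraries their deviations mirror each other, so these values cannot show or exclude a pairing. With the replicate block, in which eCtrl3 has no partner, 116 genes were called.

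For the animals labelled knockout the count of 998 became 2153 at an adjusted p of at most 0.2 and 481 to 3456 with 1 library left out (3456 without eKO2). For the difference of the line differences the count of 2 became 1 with 40 CP20M in all libraries, 4 by median of ratios and without trend, 5 by edgeR and at 0.2, 16 by DESeq2, 1 among protein-coding genes, and 2 to 187 with 1 library left out (187 without eKO2).

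Of 208 genes named or called, 184 had 1 sign throughout, and the sign changed under at least 1 alternative in the other 24, none of them called. By median of ratios the log2 difference changed sign for *Hnf4a* (-0.041), *Kdm5d* (-0.0075), *Rpl4* (-0.027), *Trim12c* (-0.0055) and *Uty* (-0.014). With scaling outside mitochondrial genes the log2 difference changed sign for *Hnf4a* (-0.042), *Kdm5d* (-0.0078), *Rpl4* (-0.027), *Trim12c* (-0.0057) and *Uty* (-0.015). By edgeR the log2 difference changed sign for *Ffar2* (0.0032), *Hnf4a* (-0.046), *Kdm5d* (-0.012), *Rpl4* (-0.027), *Scd2* (-0.0066), *Trim12c* (-0.00061) and *Uty* (-0.021). By DESeq2 the log2 difference changed sign for *Ffar2* (0.0024), *Hnf4a* (-0.053), *Kdm5d* (-0.018), *Rpl4* (-0.034), *Scd2* (-0.013), *Trim12c* (-0.0070) and *Uty* (-0.028). With the replicate block the log2 difference changed sign for *Bhlhe40* (-0.052), *Ffar2* (0.13), *Glo1* (0.077), *Hnf4a* (-0.043), *Malat1* (-0.038), *Muc2* (0.15), *Ptprc* (0.24), *Top2a* (0.0029) and *Trim12c* (-0.024). With 1 library left out it ran across 0 for *Abcb1a* (-0.18 to 0.074), *Bhlhe40* (-0.052 to 0.32), *Ceacam1* (-0.24 to 0.047), *Chga* (-0.79 to 0.25), *Dtx3l* (-0.28 to 0.034), *Eif2s3y* (-0.47 to 0.079), *Ffar2* (-0.36 to 0.17), *Glo1* (-0.090 to 0.077), *Gsdmc2* (-0.068 to 0.82), *Gsdmc4* (-0.020 to 0.81), *Hnf4a* (-0.043 to 0.079), *Kit* (-0.065 to 0.19), *Malat1* (-0.038 to 0.53), *Muc2* (-0.22 to 0.15), *Olfr78* (-0.27 to 0.19), *Ptprc* (-0.32 to 0.24), *Rpl4* (-0.037 to 0.10), *Scd2* (-0.15 to 0.25), *Slc26a2* (-0.21 to 0.17), *Tagln* (-0.15 to 0.070), *Top2a* (-0.35 to 0.0029), *Trim12c* (-0.025 to 0.19) and *Uty* (-0.0064 to 0.081). The cause was not tested. Depth sets a limit on low genes, for which 3 reads correspond to 5.87 to 7.99 CP20M.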
